A study of Homo sapiens with 12 samples.

Results

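Genes known from the epithelium of stomach, intestine and liver were followed in 2 human ovarian cancer cell lines. The 9 genes are CDH17, ANXA10, A1CF, AGR2, HPGD, SELENOP, LYZ, HNF4A and HNF4G, taken by Ensembl identifier from the 19251 genes listed for all 12 libraries, and all 9 were found and passed the filter on low values (a value of at least 10 in at least 3 libraries). They had been chosen by their levels in the untreated libraries of the 2 lines, as genes abundant in CAOV3, so the difference between the lines is given as a description with no test. The data went against that description for 2 of the 9. HNF4G was higher in TOV21G than in CAOV3, and LYZ was low in CAOV3.

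Expression was measured by RNA sequencing and is given as a normalised read count, which is the reads of a gene after division by the size factor of its library. CAOV3 is labelled as an epithelial high grade serous line and TOV21G as an epithelial clear cell line, both wild type. Each line had 3 control libraries, from cells with no treatment, and 3 libraries from cells exposed for 16 h to 10% ovarian cancer ascites, a fluid that builds up in the belly of patients, added as 150 µL. Cells of all 4 groups grew in 1.5 mL of DMEM with 10% FBS and antibiotics, and no mock addition to the controls is named. The labels do not say whether the 3 replicates of a group were separate cultures, so the p-values measure only the spread between these libraries, which may be technical.

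The libraries held 26697609 to 34491304 reads in the listed genes. The libraries labelled CAOV3 had low values of the transcription factors and surface proteins used to recognise serous ovarian tumours. PAX8 averaged 19.1 ± 1.18 (SD, n = 3) in CAOV3 controls and 7032 ± 259 in TOV21G controls, WT1 averaged 4.59 ± 2.11 against 228 ± 7.85, and MUC16, the CA125 antigen, ranged from 11.4 to 12.9 in CAOV3 controls and from 3.59 to 9.76 in TOV21G controls. Keratins of simple epithelia were abundant, with KRT8 at 66468 ± 562 and KRT18 at 47679 ± 404 in CAOV3 controls. The identity of the lines was not tested.

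HNF4A and HNF4G are nuclear receptors that bind DNA as dimers and drive gene programmes of liver and gut epithelium, together with FOXA, GATA and CDX factors. HNF4A is transcribed from a pair of alternative promoters. The other members are products of mature digestive epithelium: an intestinal cadherin, a gastric annexin, a cofactor of RNA editing, a protein folding factor of mucus-secreting cells, a prostaglandin-degrading enzyme, a liver-secreted selenium carrier and an antibacterial enzyme.

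Promoter sequence from RefSeq (GRCh38.p14) was at hand for 6 of the 9 members, in 8 windows of 250 bases upstream of an annotated start. It is shown for HNF4A, A1CF and AGR2, members that were lower together with ascites in CAOV3, and for HNF4A at the distal of its promoters. Capitals mark matches on either strand. The letters searched were CAAAG for the core of an HNF4 site. Those for FOXA factors were TGTTTAC, and those for GATA factors AGATAA. For CDX factors the search used TTTATGG. Each sequence runs 5′ to 3′ on the gene's strand, and bases that GENCODE 29 places in an exon of the gene were left out.
HNF4A, distal promoter, chr20:44355449-44355698, plus strand, ending just before the first base of the annotated gene: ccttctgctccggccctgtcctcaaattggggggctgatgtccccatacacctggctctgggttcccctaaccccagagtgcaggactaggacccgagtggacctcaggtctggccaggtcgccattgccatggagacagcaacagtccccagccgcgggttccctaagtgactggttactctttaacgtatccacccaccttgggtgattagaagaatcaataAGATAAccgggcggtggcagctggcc
A1CF, chr10:50885676-50885877, minus strand, upstream of the gene: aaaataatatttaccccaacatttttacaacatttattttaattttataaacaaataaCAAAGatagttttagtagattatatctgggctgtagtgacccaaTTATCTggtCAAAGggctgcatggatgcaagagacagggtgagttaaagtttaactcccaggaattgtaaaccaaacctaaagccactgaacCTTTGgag
AGR2, chr7:16805081-16805249, minus strand, inside the annotated gene and outside its exons: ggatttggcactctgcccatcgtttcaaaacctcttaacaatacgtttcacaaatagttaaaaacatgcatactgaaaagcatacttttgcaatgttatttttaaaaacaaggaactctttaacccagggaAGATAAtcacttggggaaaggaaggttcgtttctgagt

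The distal HNF4A window held 1 GATA match and no HNF4 core. A1CF held 3 HNF4 cores, starting 192, 139 and 56 bases before its start, and 1 GATA match, while AGR2 held 1 GATA match and no HNF4 core. Among the 35116 windows of 250 bases in the table, the HNF4 core was in 42.1%, the GATA letters in 9.17%, the FOXA letters in 2.98% and the CDX letters in 2.3%. Of the 8 windows of the members, 4 held the HNF4 core, 3 the GATA, 1 the FOXA and 1 the CDX letters. The longer HNF4 match CAAAGTNCA, which overlaps the core, was in 0.94% of all windows and in 1 of the 8, that of SELENOP. A match describes letters only, and binding was not measured.

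Of the 9 members, 8 were higher in CAOV3 controls than in TOV21G controls and 1 was lower. Among the 17616 tested genes 41.4% were called higher in CAOV3 and 40.8% lower by limma, and the members' count follows from how the genes were chosen. The median difference over the 9 members was 11.21 on the log2 scale, and it was 0.0193 over all tested genes.

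HNF4A (ENSG00000101076, chr20:44355700-44434596 on GRCh38) had 2417, 2488 and 2514 normalised counts in the CAOV3 controls. In the TOV21G controls it had 17.3, 22.0 and 17.9, from 16, 21 and 20 reads, so the groups were far apart and both lay above the floor of 3 reads. The ratio of the means was 130, with a 95% counting interval of 100.2 to 171 that covers counting error only. HNF4G (ENSG00000164749, chr8:75407914-75566843), the paralogue of HNF4A, ran the other way. It had 45.4, 55.9 and 61.4 normalised counts in the CAOV3 controls and 81.3, 78.6 and 94.2 in the TOV21G controls. All 3 TOV21G values lay above all 3 CAOV3 values, by 1.57-fold at the means.

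CDH17 (ENSG00000079112, chr8:94127171-94217303), liver-intestine cadherin, had 6105, 5870 and 6797 normalised counts in the CAOV3 controls. In the TOV21G controls it had 0, 4 and 1 reads, and the ratio of the means was 3743, with a counting interval of 1604 to 11528. ANXA10 (ENSG00000109511, chr4:168092515-168187690), an annexin known from gastric mucosa, had 6870, 6647 and 7296 in the CAOV3 controls. It had no read in any TOV21G control and was at least 2290-fold higher in CAOV3, taking 3 reads per library as the limit that a count of 0 allows. Both genes therefore separated the lines by more than 3 orders of magnitude on the log axis.

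A1CF (ENSG00000148584, chr10:50799409-50885675), the RNA-binding cofactor that guides APOBEC1 to APOB mRNA, had 1273, 1163 and 1346 normalised counts in the CAOV3 controls. It had no read in any of the 6 TOV21G libraries, and the CAOV3 controls were at least 416-fold higher. The gene overlaps the listed gene ASAH2B on the opposite strand, and since no source used here states whether the libraries keep strand, reads of the 2 genes may be mixed.

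AGR2 (ENSG00000106541, chr7:16791811-16833433), a disulfide isomerase that mucus-secreting cells need for mucin folding, had 14101, 13348 and 13582 normalised counts in the CAOV3 controls and no read in the TOV21G controls, at least 4515-fold lower. SELENOP (ENSG00000250722, chr5:42799880-42887392), the selenium carrier that the liver releases into plasma, had 5541, 5517 and 6046 in the CAOV3 controls and 1 read in all 3 TOV21G controls together. Its ratio of 17052 has a counting interval of 3061 to 673515 and is set by that single read. SELENOP overlaps the listed gene CCDC152 on the opposite strand, with the same uncertainty.

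HPGD (ENSG00000164120, chr4:174490177-174523154), which inactivates prostaglandins by oxidation, had 4727, 4752 and 5282 normalised counts in the CAOV3 controls. It had 2, 0 and 2 reads in the TOV21G controls, a ratio of 3679 with a counting interval of 1437 to 13503. LYZ (ENSG00000090382, chr12:69348341-69354234), the lysozyme of Paneth cells, gastric glands and myeloid cells, had only 45.4, 30.1 and 50.5 normalised counts in the CAOV3 controls, from 28 to 51 reads. It had no read in any TOV21G library and was at least 13.9-fold higher in CAOV3. LYZ thus shared the absence from TOV21G with A1CF, but at a far lower level in CAOV3.

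**Figure D1:**
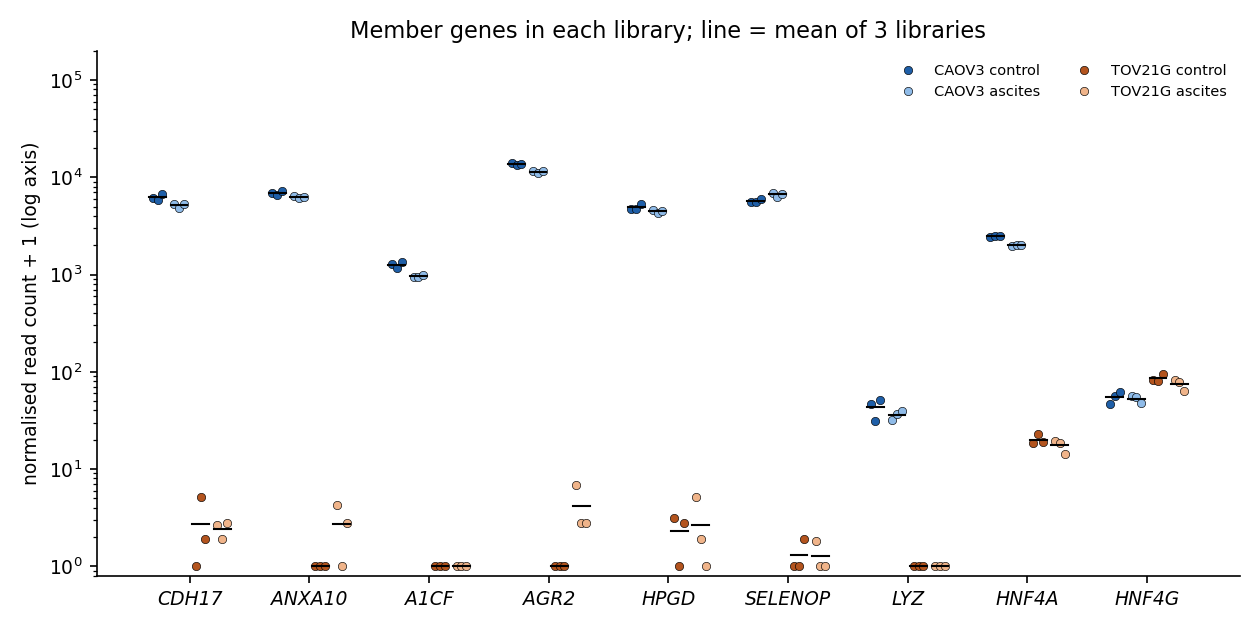
Normalised read count plus 1 on a log axis for the 9 members in each of the 12 libraries; points are libraries, coloured by group, and black lines are means of 3. The CAOV3 libraries sit far above the TOV21G libraries for CDH17, ANXA10, A1CF, AGR2, HPGD, SELENOP and HNF4A, LYZ is low, and HNF4G is higher in TOV21G.

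Ranked by the log2 difference between the lines among all 17616 tested genes, AGR2 stood at rank 1 (13.74), ANXA10 at rank 2 (12.76) and SELENOP at rank 3 (12.17). CDH17 followed at rank 10 (11.51), HPGD at rank 17 (11.21) and A1CF at rank 39 (10.30). HNF4A (6.95), LYZ (5.39) and HNF4G (-0.64) stood at ranks 308, 611 and 12495. The members thus did not form 1 block by this measure, and LYZ and HNF4G lay apart from the rest. AGR2 and ANXA10 had no read and SELENOP 1 read in the TOV21G controls, so the pseudocount of 1 enters their differences. By edgeR the difference was 16.74 for AGR2, 15.76 for ANXA10 and 13.59 for SELENOP. It was 15.04 for LUM, which is not a member, so the order depends on the scale.

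Levels of different genes were compared per kilobase of annotated exon. In CAOV3 controls AGR2 had 4807 normalised counts per kb, rank 183 of 19223 genes with a length, and ANXA10 had 3829 (rank 246). CDH17 had 1604 (rank 783), SELENOP 1002 (rank 1365) and HPGD 890 (rank 1563). HNF4A had 338 (rank 4195), A1CF 131 (rank 7591), LYZ 23.8 (rank 12412) and HNF4G 11.3 (rank 14153). On this scale AGR2 and ANXA10 led the set and LYZ and HNF4G closed it. The values of neighbours in this order, such as CDH17 and SELENOP, depend on the exon length taken, which is the union over all annotated transcripts.

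Within the CAOV3 controls the members varied little between libraries. The coefficient of variation was 2.02% for HNF4A, 2.82% for AGR2, 4.76% for ANXA10, 5.24% for SELENOP, 6.37% for HPGD, 7.32% for A1CF and 7.71% for CDH17. It was 15.0% for HNF4G and 25.2% for LYZ, the members with the fewest reads.

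The genes whose pattern over the 12 libraries was most like that of HNF4A were RASSF9, TBX2, COL28A1, MARCKSL1 and ENSG00000236921. Likeness was the root mean square difference of log2(value + 1) after centring each gene, which was 0.151, 0.160, 0.161, 0.168 and 0.171. MARCKSL1 averaged 8617 ± 416 in CAOV3 controls and 70.4 ± 2.94 in those of TOV21G (SD, n = 3). The other 4 had no read in TOV21G and means of 120 to 142 in CAOV3 controls, so their likeness rests on a similar distance between the lines. Among the other members LYZ was nearest to HNF4A, at 0.840 and rank 438, and HNF4G farthest, at 3.74 and rank 12052. These values too rest mainly on the distance between the lines, by which the members were chosen. LYZ had no read in TOV21G, so its value also depends on the pseudocount.

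The effect of ascites on these genes was then examined within each line. The members had been chosen by their levels in the control libraries, which are also the reference of each ascites contrast. These contrasts are therefore not independent of the choice of members. How far the choice moves the changes was not tested. In CAOV3 the changes were small. SELENOP was higher in all 3 ascites libraries than in all 3 controls, and 6 members, CDH17, ANXA10, A1CF, AGR2, HPGD and HNF4A, were lower in all 3. Over all tested genes 11.4% had ascites libraries wholly above the controls and 12.8% wholly below. LYZ and HNF4G overlapped between the groups.

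By the test set as the main one, limma with both lines in 1 fit, 0 of the 9 members passed an adjusted p of 0.05 in CAOV3, where 1.73% of all tested genes did (305 called, and 2280 with an unadjusted p under 0.05). By edgeR on the recovered reads 5 members passed, 1 higher and 4 lower, against 1.15% of genes called higher and 1.75% lower. DESeq2 also called 1 higher and 4 lower, with 1.36% and 2.3% of its 13859 genes. With CAOV3 fitted alone by limma 1 rose and 5 fell, against 3.63% and 4.56% of 15808 genes. The fit of both lines estimates 1 spread per gene over all 12 libraries, and for CDH17, ANXA10, AGR2, HPGD and SELENOP the TOV21G libraries hold 0 to 7 reads, where 1 read more or less moves log2(value + 1) widely. The standard error of CDH17, for example, was 0.41 in the joint fit and 0.045 in CAOV3 alone. It was also larger in the joint fit for A1CF (0.16 against 0.054), which had no read in TOV21G, and for HNF4A (0.12 against 0.038). The cause of the larger standard errors was not tested. The median change of the 9 members was -0.23 on the log2 scale, and that of all tested genes -0.0021.

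A1CF had the largest fall of the 9. It had 1273, 1163 and 1346 normalised counts in controls and 944, 931 and 989 with ascites. It fell by 24.3%, a log2 change of -0.40 with SE 0.054 in CAOV3 alone (limma adjusted p = 2.25e-05; edgeR 0.00332; DESeq2 6.49e-05), where the joint limma fit gave SE 0.16 and adjusted p = 0.282. The highest ascites library stayed below the lowest control.

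HNF4A had 2417, 2488 and 2514 normalised counts in controls and 1984, 2008 and 2001 with ascites, the tightest groups of the set. It fell by 19.2%, a log2 change of -0.31 with SE 0.038 in CAOV3 alone (limma adjusted p = 7.12e-06; edgeR 0.000242; DESeq2 6.93e-06; joint limma fit 0.264). HNF4G had 54.7, 54.2 and 47.1 with ascites beside 45.4, 55.9 and 61.4 in controls. Its log2 change of -0.05 had a 95% interval of -0.44 to 0.33 in CAOV3 alone (limma adjusted p = 0.918), so a change of the size seen for HNF4A lay inside it. Its sign was not stable, and it became 0.041 without control replicate 3 and 0.016 without ascites replicate 3.

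CDH17 had 6105, 5870 and 6797 normalised counts in controls and 5268, 4854 and 5313 with ascites. It fell by 17.8%, a log2 change of -0.28 (limma in CAOV3 alone adjusted p = 0.000198; edgeR 0.0145; DESeq2 0.000674; joint limma fit 0.855). ANXA10 had 6870, 6647 and 7296 in controls and 6433, 6133 and 6339 with ascites, a difference of -9.16% and -0.14 on the log2 scale. Its call depended on the test, with a limma adjusted p of 0.0184 in CAOV3 alone, 0.215 by edgeR and 0.123 by DESeq2, and the call in CAOV3 alone was lost without control replicate 1 (0.0551), ascites replicate 2 (0.103) or ascites replicate 3 (0.0632).

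AGR2 had 14101, 13348 and 13582 normalised counts in controls and 11560, 11010 and 11626 with ascites. It fell by 16.7%, a log2 change of -0.26 with SE 0.033 in CAOV3 alone (limma adjusted p = 9.48e-06; edgeR 0.00698; DESeq2 1.27e-06; joint limma fit 0.732). HPGD had 4727, 4752 and 5282 in controls and 4627, 4287 and 4544 with ascites, a difference of -8.83% and -0.13 on the log2 scale. It missed the threshold in each test run on all libraries of the line, with a limma adjusted p of 0.0509 in CAOV3 alone and 0.316 by edgeR, and passed in CAOV3 alone without control replicate 1 (0.0497) or control replicate 2 (0.0263). Whether AGR2 and HPGD differ in the size of their change was not tested.

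SELENOP was the member that rose. It had 5541, 5517 and 6046 normalised counts in controls and 6925, 6307 and 6731 with ascites. The mean was 16.7% higher, a log2 change of 0.22 with SE 0.040 in CAOV3 alone (limma adjusted p = 0.000715; edgeR 0.0246; DESeq2 0.00537; joint limma fit 0.793). LYZ had 45.4, 30.1 and 50.5 in controls and 30.6, 35.8 and 38.9 with ascites, and its log2 change of -0.23 had an interval of -0.70 to 0.24 (limma in CAOV3 alone, adjusted p = 0.62).

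The calls of CDH17, A1CF, AGR2, HNF4A and SELENOP in CAOV3 alone held in all 6 fits that leave out 1 library. The highest adjusted p by limma in those fits was 0.00265 for CDH17, 0.000338 for A1CF, 0.000382 for AGR2, 0.000163 for HNF4A and 0.0132 for SELENOP.

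**Figure D2:**
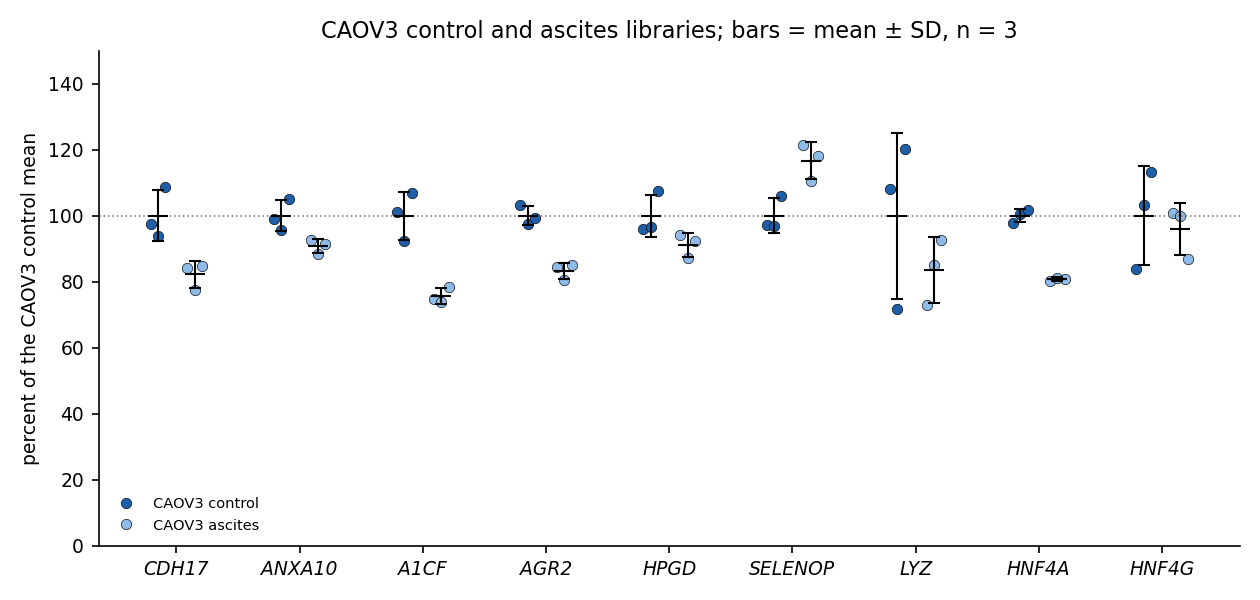
Each CAOV3 library as a percent of the CAOV3 control mean for the 9 members; points are libraries, bars mean ± SD with n = 3, and the dotted line is 100%. The ascites libraries lie below all controls for CDH17, ANXA10, A1CF, AGR2, HPGD and HNF4A and above them for SELENOP, while LYZ and HNF4G overlap.

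**Figure D3:**
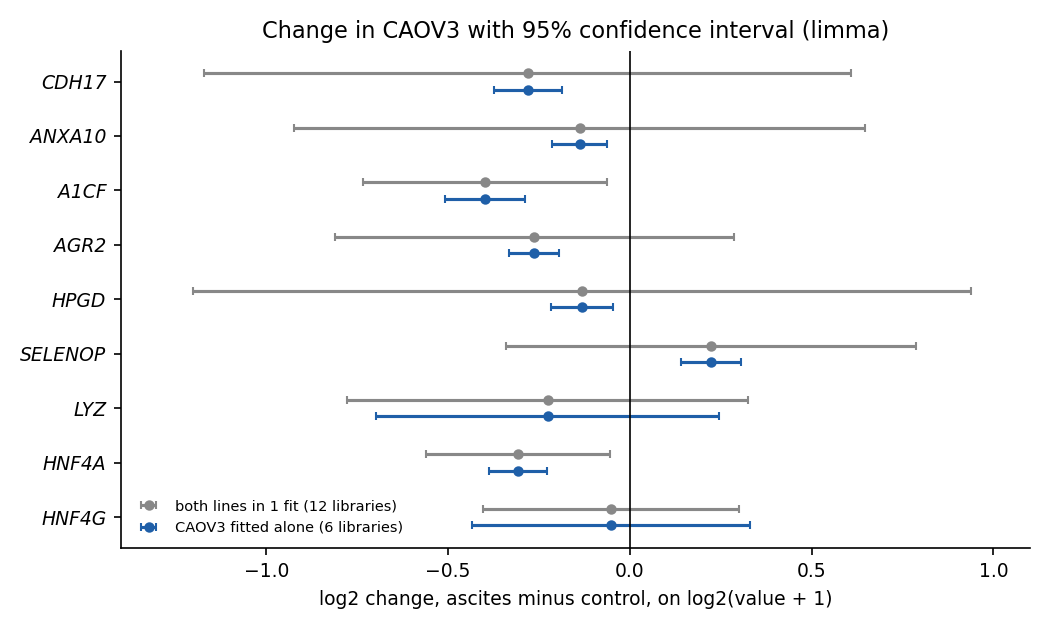
Change with ascites in CAOV3 on the log2(value + 1) scale with its 95% confidence interval, from the fit of both lines (grey) and of CAOV3 alone (blue). The estimates are the same and the intervals of the joint fit are wider for all members but HNF4G. In the joint fit the intervals of A1CF and HNF4A lie below 0 and those of the other 7 reach across 0, while in CAOV3 alone only those of LYZ and HNF4G do.

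In TOV21G the members gave little to test. CDH17, ANXA10, A1CF, HPGD, SELENOP and LYZ were at or under 3 reads per library on average in both groups, so no change is given for them. With ascites, CDH17 had 2, 1 and 2 reads, ANXA10 4, 0 and 2, HPGD 5, 1 and 0, SELENOP 1, 0 and 0, and A1CF and LYZ none. The TOV21G libraries hold 27199401 reads or more each, so transcripts of these genes were close to the limit of detection with and without ascites.

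AGR2 had no read in the 3 TOV21G controls and 7, 2 and 2 reads in the ascites libraries. It passed the filter on low values through its CAOV3 libraries alone and was too low to enter the fit of TOV21G alone, which called 0 of the 2 members fitted and 0.141% of genes. Limma with both lines in 1 fit gave it an adjusted p of 0.0052, where 0.409% of all tested genes were called in TOV21G. Neither edgeR (adjusted p = 0.0569, 0.647% of genes called) nor DESeq2 (0.0874, 1.06% called) passed it. Its libraries did not overlap between the groups, as was the case for 4.16% of tested genes in this direction. In 2 of the 3 ascites libraries it stayed under the limit of 3 reads that a count of 0 allows, so no fold is given, and a change of AGR2 in TOV21G was not shown. HNF4A had 17.3, 22.0 and 17.9 normalised counts in TOV21G controls and 18.2, 17.7 and 13.4 with ascites, groups that overlap. Its log2 change was -0.21 with a 95% interval of -0.82 to 0.40 in TOV21G alone (limma adjusted p = 0.84) and of -0.46 to 0.04 in the joint fit (0.613). HNF4G had 81.3, 78.6 and 94.2 in controls and 81.2, 77.9 and 62.6 with ascites, and its log2 change was -0.20, with an interval of -0.54 to 0.14 in TOV21G alone (limma adjusted p = 0.763) and of -0.55 to 0.15 in the joint fit (0.72).

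The difference between the responses of the 2 lines was fitted directly, TOV21G minus CAOV3, in the joint fit. For HNF4A it was 0.10, with an interval of -0.26 to 0.46 (limma adjusted p = 0.82), and for HNF4G -0.15, with an interval of -0.64 to 0.35 (0.805). The response of HNF4A was therefore not shown to differ between the lines. For AGR2 the fit gave 2.17 on the log2(value + 1) scale (SE 0.36, limma adjusted p = 0.0173; edgeR 0.0314; DESeq2 0.0378), where 0.545% of all tested genes were called. This value sets 11 reads in TOV21G ascites against 0 in the controls, and the pseudocount sets its size, with 2.94 at a pseudocount of 0.5 and 0.93 at 5. The call was lost with the replicate block (limma adjusted p = 0.0872), without any 1 of the 6 CAOV3 libraries and without TOV21G control replicate 3 (limma adjusted p from 0.0512 to 0.0644), so a difference between the lines in the response of AGR2 was not established.

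Other genes of digestive epithelium were described from fixed lists. Of 21 intestinal genes 14 were listed and tested, and all 14 were higher in CAOV3 controls. CDX1, MUC2, FABP2, KRT20, GPA33, OLFM4 and PHGR1 were not listed. Over all tested genes limma called 41.4% higher in CAOV3 controls and 40.8% lower. VIL1, the villin of microvilli, averaged 4290 ± 406 in CAOV3 and 1.55 ± 1.85 in TOV21G controls (SD, n = 3). MUC13 and CEACAM6, a surface mucin and an adhesion molecule, had 1419 ± 21.9 and 1320 ± 90.9 in CAOV3 and no read in TOV21G controls, and CDX2, the intestinal master regulator, ranged from 237 to 272 in CAOV3 controls and was 0 in TOV21G controls. Of 14 gastric genes 7 were listed and tested, while MUC6, CLDN18, GKN1, GKN2, CTSE, PGC and LIPF were not listed. Of the 7 tested, 5 were higher in CAOV3, and 2 were lower, MUC1 and SOX2. The trefoil factors TFF1 (1176 ± 96.8), TFF3 (501 ± 103) and TFF2 (323 ± 26.4) led them, all with no read in TOV21G controls. Of 18 secreted hepatocyte proteins 13 were listed and 11 tested. Of the 11 tested, 8 were higher in CAOV3, led by RBP4 (491 ± 18.8), and 3 were lower. APOB, APOC3, TF, AHSG and HP were not listed. ALB, the albumin gene, averaged 10.6 ± 4.89 in CAOV3 controls and did not pass the filter on low values. SERPINA1 was 25.4 ± 4.11 in CAOV3 and 486 ± 37.6 in TOV21G controls.

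Of 15 endoderm transcription factors 12 were listed and tested, and 7 were higher and 2 lower in CAOV3 controls, by the same limma threshold. The shares over all tested genes were 41.4% higher and 40.8% lower. FOXA1, which opens chromatin at endodermal enhancers, had 2501 ± 57.2 in CAOV3 and 46.0 ± 12.7 in TOV21G controls. The 2 lower were FOXA3, at 77.2 ± 4.09 in CAOV3 and 525 ± 48.1 in TOV21G controls, and SOX9. SOX9 had 3057 ± 62.5 in CAOV3 and 3774 ± 69.7 in TOV21G controls, a smaller difference than that of FOXA3. KLF5 was close in both lines, at 2520 ± 164 in CAOV3 and 2564 ± 61.6 in TOV21G controls. These lists were chosen with the line difference of the members known, and their counts are not independent support of it.

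**Figure D4:**
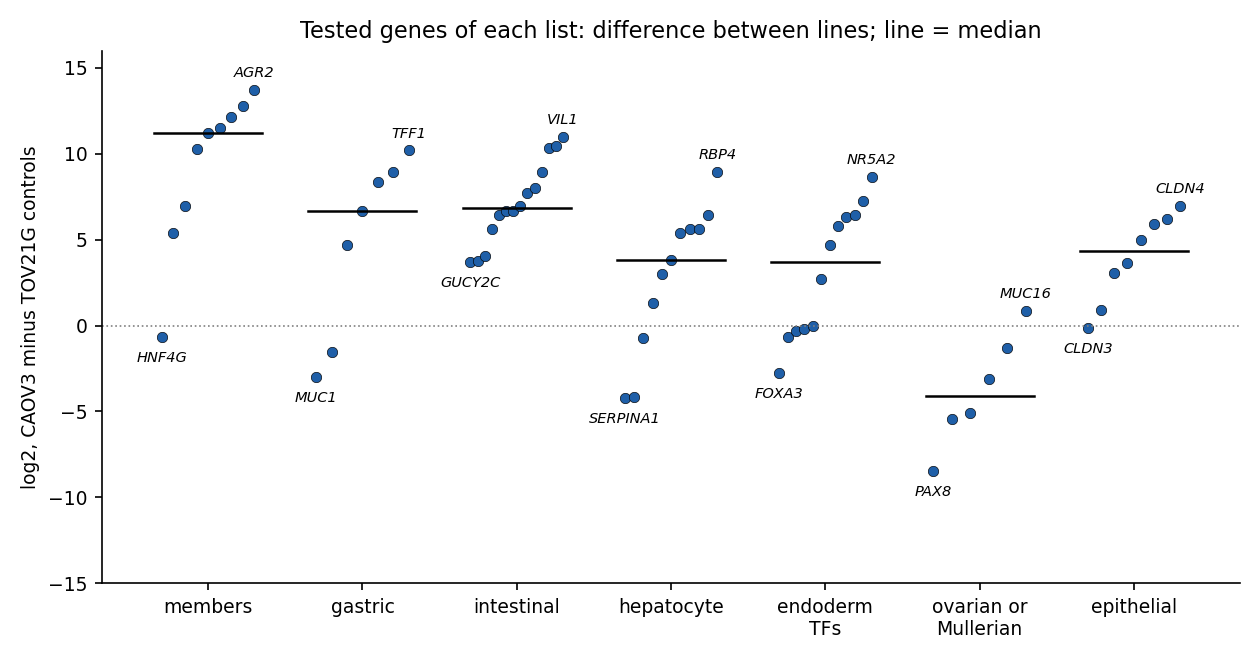
Difference between the lines (log2, CAOV3 minus TOV21G controls) for the tested genes of the 9 members and 6 lists; each point is a gene, black lines are medians, and the genes at the ends are named. The members range from HNF4G (-0.64) to AGR2 (13.74), the 14 intestinal genes all lie above 0, and PAX8 is the lowest point.

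With ascites in CAOV3, intestinal genes were lower more than higher. In CAOV3 alone 8 of the 14 fell by limma and 0 rose, where 4.56% of all genes fell, and the median change was -0.34 against -0.0038 for all genes. Limma with both lines called 0 of the 14 and edgeR 2, VIL1 and MYO1A. VIL1 ranged from 3986 to 4751 normalised counts in controls and from 3271 to 3727 with ascites, a log2 change of -0.30 (edgeR adjusted p = 0.0348, limma in CAOV3 alone 0.000566). MYO1A, the brush border myosin, ranged from 277 to 326 and from 206 to 218, a change of -0.48 (0.0291 and 0.00131). The others were LGALS4, FABP1, CDHR2, CDHR5, REG4 and ISX, the last an intestine-specific homeobox factor with the largest change of the 8, -0.81 (limma in CAOV3 alone, adjusted p = 0.00257). MUC13 and CEACAM6 had log2 changes of 0.04 each and were not called.

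Among gastric and hepatic genes none was called lower. In CAOV3 alone 2 of 7 gastric genes rose and 0 fell, where 3.63% of all genes rose and 4.56% fell. MUC1, a membrane mucin, ranged from 46.5 to 55.4 in controls and from 109 to 129 with ascites, a log2 rise of 1.27 (limma in both lines, adjusted p = 6.06e-05), and SOX2 changed by 0.46 (limma in CAOV3 alone 0.0189; in both lines 0.0637). Of 11 hepatocyte genes 1 rose and 0 fell, SERPINA1, the alpha-1 antitrypsin gene, from 21.5 to 29.7 in controls to 44.0 to 82.1 with ascites, a log2 rise of 1.34 (limma in both lines, adjusted p = 0.00407). Both genes were lower in CAOV3 than in TOV21G at baseline. The other 5 gastric genes had log2 changes from -0.48 (MUC5AC) to -0.02 (TFF3), and 8 of the 11 hepatocyte genes had changes below 0, down to -0.64 (TM4SF4), without passing the test. FGG, a fibrinogen gene of the hepatocyte list, did not pass the filter on low values and was not tested. It was 0 in the CAOV3 controls and ranged from 6.14 to 23.0 normalised counts with ascites. The medians of these lists were -0.08 and -0.18, below 0 as for the intestinal genes, and whether the lists differ was not tested.

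Of the endoderm factors, 11 of which could be fitted in CAOV3 alone, 2 fell and 0 rose. Over all genes 4.56% fell and 3.63% rose in that fit. FOXA1 fell by 0.22 (limma adjusted p = 0.00102) and CEBPA by 0.35 (0.00617), each on the log2 scale. Of the 2, FOXA1 passed by edgeR (adjusted p = 0.0487) and CEBPA did not (0.0958), and neither did in the joint limma fit. FOXA2, at 1466 normalised counts in CAOV3 controls, had a log2 change of -0.07 and was not called. In TOV21G the joint limma fit called ELF3, an epithelial ETS factor, higher, from 163 to 180 in controls to 255 to 318 with ascites (log2 0.69, limma adjusted p = 0.00115), and FOXA2 lower, from 14.7 to 19.7 to 5.37 to 10.6 (limma adjusted p = 0.0351). The call for ELF3 held by edgeR (adjusted p = 9.43e-05), and that for FOXA2 did not (0.143). The joint limma fit called 0.409% of all tested genes in TOV21G.

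**Figure D5:**
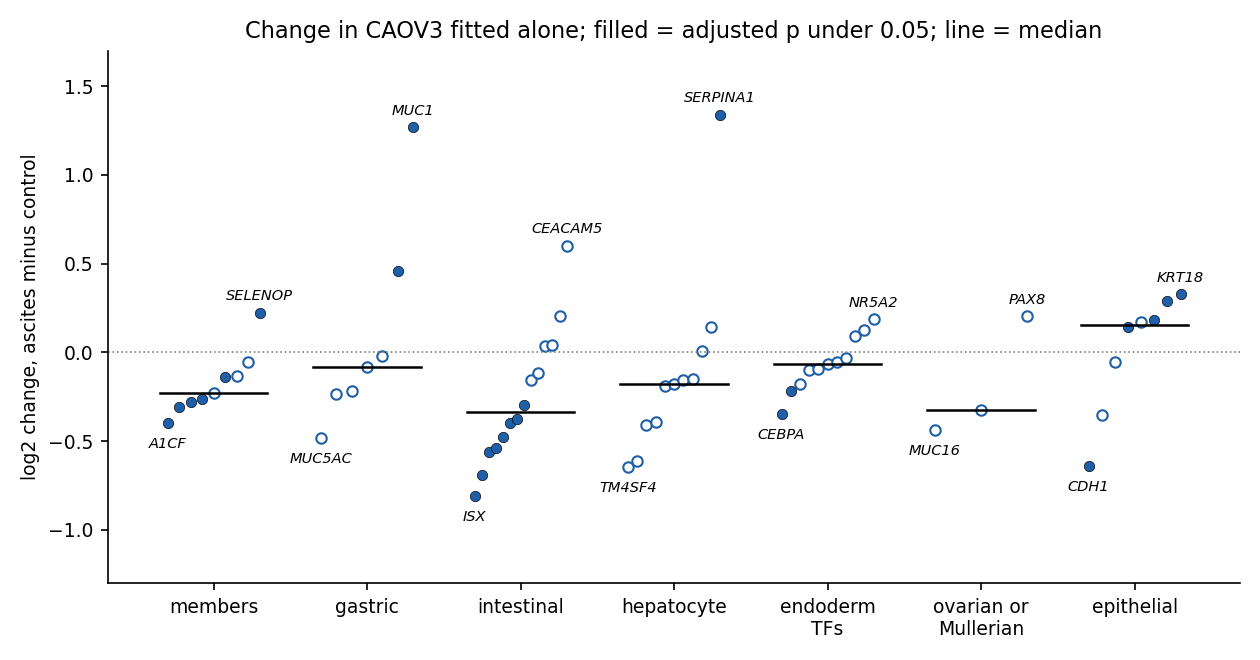
Change with ascites in CAOV3 fitted alone (log2, ascites minus control) for the 9 members and 6 lists; filled points have an adjusted p under 0.05, open points do not, and black lines are medians. Below 0, 8 intestinal genes and 5 members are filled, and MUC1, SERPINA1 and SELENOP are the highest points of their lists.

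The functional partners of single members were read from the same lists, with calls from limma in CAOV3 alone, which called 3.63% of all genes higher and 4.56% lower. For A1CF, none of the 3 listed partners was called. RBM47, the other RNA-binding cofactor of APOB mRNA editing, had 3619 ± 188 normalised counts in controls and 3328 ± 155 with ascites (SD, n = 3, adjusted p = 0.0773), and SYNCRIP had a log2 change of 0.04. For AGR2, none of 6 secretory disulfide isomerases and their regulators was called, and the log2 change was 0.03 for PDIA4, 0.04 for PDIA6 and 0.07 for PDIA3, isomerases of the endoplasmic reticulum that fold many secreted proteins.

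For HPGD, 1 of 11 prostaglandin genes rose and 0 fell, a share near that of all genes. The gene was PTGES3, by 0.11 (adjusted p = 0.034), and it did not pass by edgeR (0.195), DESeq2 (0.245) or limma in both lines (0.383). PTGS2, the inducible cyclooxygenase that starts prostaglandin synthesis, ranged from 1073 to 1207 in controls and from 1222 to 1282 with ascites, without overlap (0.14, adjusted p = 0.0866). For SELENOP, 1 of 12 selenoprotein genes rose and 1 fell, also near the shares of all genes. GPX1, a selenium-dependent peroxidase, ranged from 2740 to 3104 in controls and from 3638 to 3721 with ascites, a log2 rise of 0.31 (2.84e-05, and 0.0138 by limma in both lines), and LRP8, a receptor for SELENOP, fell by 0.18 (0.0384), a call lost by edgeR (0.0998), DESeq2 (0.0952) and limma in both lines (0.11). GPX4 and TXNRD1 had changes of 0.01 and 0.05 and were not called.

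For CDH17 and ANXA10, 1 of 9 cadherins and annexins rose and 1 fell. CDH1, E-cadherin, ranged from 389 to 455 in controls and from 266 to 281 with ascites, and it fell by 0.64 on the log2 scale (limma in CAOV3 alone, adjusted p = 7.18e-06; edgeR 0.00415; limma in both lines 0.438). ANXA3 rose by 0.28 (limma in CAOV3 alone, adjusted p = 0.00164; edgeR 0.0243; limma in both lines 0.064). The abundant annexins ANXA1, ANXA2, ANXA4 and ANXA5 had changes of -0.06 to 0.04 and were not called. Among 8 epithelial markers 4 rose in CAOV3 alone and 1, CDH1 again, fell. KRT8 and KRT18 rose by 0.29 and 0.33 (limma in CAOV3 alone, adjusted p = 3.04e-06 and 4.04e-07; in both lines 0.0231 and 0.0102), and KRT7 and CLDN4 by 0.18 and 0.14 (in CAOV3 alone 0.000689 and 0.0298; in both lines 0.274 and 0.824). EPCAM, KRT19 and CLDN3 had changes of 0.17, -0.06 and -0.35 and were not called. The lower values of HNF4A, A1CF, AGR2 and CDH17 thus stood beside epithelial markers that moved in both directions.

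Ascites fluid can hold other cells, so their markers were read in the same libraries. Of 14 genes of leukocytes, cells that also make LYZ, 3 were listed (CD14, LAPTM5 and FCER1G), and their summed value ranged from 125 to 137 in CAOV3 controls and from 113 to 142 with ascites. For 5 mesothelial genes the sum ranged from 64.5 to 82.1 and from 50.1 to 76.7, and for PECAM1, the 1 endothelial gene listed, from 8.61 to 10.2 and from 5.11 to 11.3. For 6 fibroblast genes, led in CAOV3 by LUM, it ranged from 5560 to 6419 and from 5328 to 5478. The summed leukocyte, mesothelial and endothelial values overlapped between the groups, and the fibroblast sum was lower with ascites. The mean of LUM was 4196 in CAOV3 controls and 3647 with ascites, and the means of COL1A1 and COL1A2 were also lower. Those of COL3A1 (424.0 and 424.1), PDGFRA (1005.5 and 1062.5) and PDGFRB (21.3 and 22.5) were not. The joint limma fit called COL1A2 lower (adjusted p = 0.00461), at means of only 2.46 and 0.36, and edgeR did not (0.232). The controls, which received no ascites, already held the fibroblast genes, with LUM at 4196 ± 366 in CAOV3 controls (SD, n = 3). A marker value therefore does not show that cells of that type were present. Number of cells and RNA per cell cannot be told apart in such libraries. The part of these markers in the changes of the members was not tested.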

How the data were processed

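RNA was sequenced from 12 libraries in 4 groups of 3. The submitters' processing notes name Trim Galore, cutadapt, STAR, HTSeq and DESeq; versions, genome build and annotation are not given in the sources used here. The authors deposited a normalised signal per gene, found from the values to be reads over a size factor per library: in each library 100% of the values gave whole reads within a tolerance of 0.1. Symbols came from a gene names table (19087) and GENCODE 29 (136), and positions from GENCODE 29 on GRCh38.

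The main test was limma 3.58.1 (R 4.3.3) on log2(value + 1) of all 12 libraries, for 17616 genes with a value of at least 10 in at least 3 libraries, with Benjamini-Hochberg adjustment within a contrast and calls at an adjusted p under 0.05 (two-sided). This scale understates changes of low genes. edgeR 4.0.16 (quasi-likelihood) called 511 genes in CAOV3 on the recovered reads, and DESeq2 1.42.0 507. Each line was also fitted alone, with the filter applied within its 6 libraries, and, added after seeing the data, without each library. The joint limma fit alone was tried on simulated reads, with changes planted only in well expressed genes of each line. That trial planted no change in genes near 0 in a line, such as AGR2 in TOV21G. Counting intervals cover counting error only.

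The members and lists were chosen with earlier results of these data known. Named were all members; genes of the lists called in an ascites contrast, with up to 4 genes per list highest in CAOV3 and 2 in TOV21G controls; and 5 genes nearest HNF4A. MYO1A, ISX, LGALS4, FABP1, CDHR2, CDHR5, REG4, CDX2, CEBPA, CDH1, ANXA3, LRP8, CLDN4, CLDN3, EPCAM, MUC5AC, TM4SF4, ALB, FOXA3, FGG and PDGFRB were named after their values were seen. The intestinal, gastric and hepatocyte genes that were not listed were also named at that stage. Some genes of the lists are not reported here.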

Additional observations from a re-analysis of the deposited data

Results flagged for a closer look

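The fit of the difference between the lines in their response to ascites passed the threshold for AGR2, at 2.17 on the log2(value + 1) scale, TOV21G minus CAOV3, with SE 0.36 (limma adjusted p = 0.0173). In CAOV3 the 3 ascites libraries lay below the 3 controls, and in TOV21G 7, 2 and 2 reads were counted with ascites against none in controls. The size on this scale depends on the pseudocount, since TOV21G controls have no read, and the gene passed the filter on low values through its CAOV3 libraries alone. The call was lost in 7 of the 12 fits that leave out 1 library (limma adjusted p from 0.0512 to 0.0644) and with the replicate block (0.0872), so the difference was not established.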

How the results depend on the processing

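The joint limma fit called 0 members in CAOV3, also in each fit that leaves out 1 library (0 to 0), and edgeR called 5, DESeq2 5 and CAOV3 alone 6 (5 to 7 without 1 library, which moves ANXA10 and HPGD across the threshold). Over all genes the CAOV3 counts were 305 (172 to 344 without 1 library, lowest without ascites replicate 2), 511 by edgeR, 507 by DESeq2 and 1295 in CAOV3 alone (728 to 1519). In TOV21G 1 member was called by the joint fit (1 to 2; the second is ANXA10 without ascites replicate 2, which had none of its reads), 0 by edgeR, DESeq2 and TOV21G alone (0 to 0), and all genes gave 72 (24 without control replicate 3 to 136 without ascites replicate 2), 114, 151 and 22 (9 to 26). For the difference between the responses the joint fit called 1 member (0 to 2) and 96 genes (40 without TOV21G control replicate 3 to 146 without TOV21G ascites replicate 2), edgeR 148 genes and DESeq2 210. The cause of these differences was not tested, beyond the standard errors given above. Replicate numbers did not pair the libraries: deviations of same-numbered libraries correlated by -0.0689 to 0.0603 in CAOV3 and -0.417 to 0.0726 in TOV21G. For differently numbered libraries the range was -0.11 to 0.0969 in CAOV3 and -0.344 to 0.455 in TOV21G. The highest was control replicate 1 with ascites replicate 2 of TOV21G. Whether libraries share a batch in another order was not tested. With the replicate block the fit called 0 members for CAOV3, 1 for TOV21G and 0 for the difference, and 116, 13 and 9 genes in all.

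The median difference between the lines over the members was 11.21, and 11.72 with a pseudocount of 0.5, 9.62 with a pseudocount of 5, and 10.69 to 11.42 without 1 library. The lowest of these, without TOV21G control replicate 2, is the value of HPGD, which had 2, 0 and 2 reads in TOV21G controls. HNF4G in CAOV3 ranged from -0.17 to 0.041 without 1 library in either fit, and reversed to 0.041 without control replicate 3 and to 0.016 without ascites replicate 3. No other member changed its sign in CAOV3 under the alternatives run, nor did HNF4A or HNF4G in TOV21G. CDH17 in TOV21G, at 0 to 4 reads, was 0.17 by limma, -0.17 by edgeR and -0.21 by DESeq2. Low counts limit LYZ and HNF4G in CAOV3 and all members but HNF4A and HNF4G in TOV21G.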
